A study of Mus musculus with 29 samples.

Results

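The comparison described here sets prefrontal Sus-T mice against Res-T mice that met no trauma. It rests on 6 RNA libraries of the medial prefrontal cortex, 2 from Sus-T and 4 from Res-T, out of 29 samples in the whole series, and it covers all 6080 genes of the deposited prefrontal table. Libraries were chosen by their labels alone, and every difference is Sus-T minus Res-T on the log2(value + 1) scale. All animals carried the Thy1-YFP transgene (B6.Cg-Tg(Thy1-YFP)HJrs/J), which places a yellow fluorescent protein under the Thy1 promoter and marks a subset of neurons. Cells labelled pyramidal neurons were sorted from dissociated tissue (the protocol text speaks of amygdala punches for these libraries too), and total RNA was sequenced with a kit for very small inputs after removal of ribosomal RNA. The labels do not spell out Sus-T and Res-T, do not describe the trauma and do not give the age, the sex or the number of prefrontal animals behind each library. Another Sus-T library without trauma (replicate 2) is described, but no column of it was analysed here. The 7 prefrontal libraries of mice with trauma, 4 Sus-T and 3 Res-T, were fitted in the same model and serve as a second set of Sus-T and Res-T libraries. Nothing says that replicates came from separate animals, so p-values measure only the spread between these libraries.

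The medial prefrontal cortex takes part in extinction of learned fear, in which a cue that no longer predicts harm loses its hold on behaviour. Pyramidal neurons of its deep layers send axons to the amygdala and other parts of the fear circuit. Their output depends on glutamate receptors and their scaffold, on calcium and cyclic AMP signalling, and on genes switched on by activity such as Fos. The series asked which features of these neurons go with poor fear extinction.

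The makeup of the RNA and the place of Res-T replicate 4 touch every value below. None of 14 pyramidal neuron markers, Slc17a7, Camk2a, Thy1 and Rbfox3 among them, was among the 6080 genes analysed here, and neither was any of 17 microglia or 11 ependymal, choroid and blood markers, while 13 of 24 oligodendrocyte and 9 of 20 astrocyte markers were. The pyramidal label could therefore not be checked against its defining markers. In bulk libraries, fewer cells of a type and less RNA per cell cannot be told apart. On the first principal component (34.6% of variance) Res-T replicate 4 scored 42.4, against -31 to 6.81 for the other 3 Res-T libraries without trauma and 40.1 to 47.6 for Res-T libraries with trauma. It correlated with those at r of 0.946 to 0.98 across genes, and with its own group at 0.815 to 0.91. It is labelled as without trauma and was kept as such, and the main counts and the lists below whose counts or medians it moves most are also given without it. Replicate 2 of Res-T stood apart on the second component (18.6%), with a score of 68 against -8.51 to 6.91 in the other Res-T libraries without trauma. Summed over genes, each of the 6 libraries held between 2106833 and 2343912 units; the read depth behind them is unknown.

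**Figure D1:**
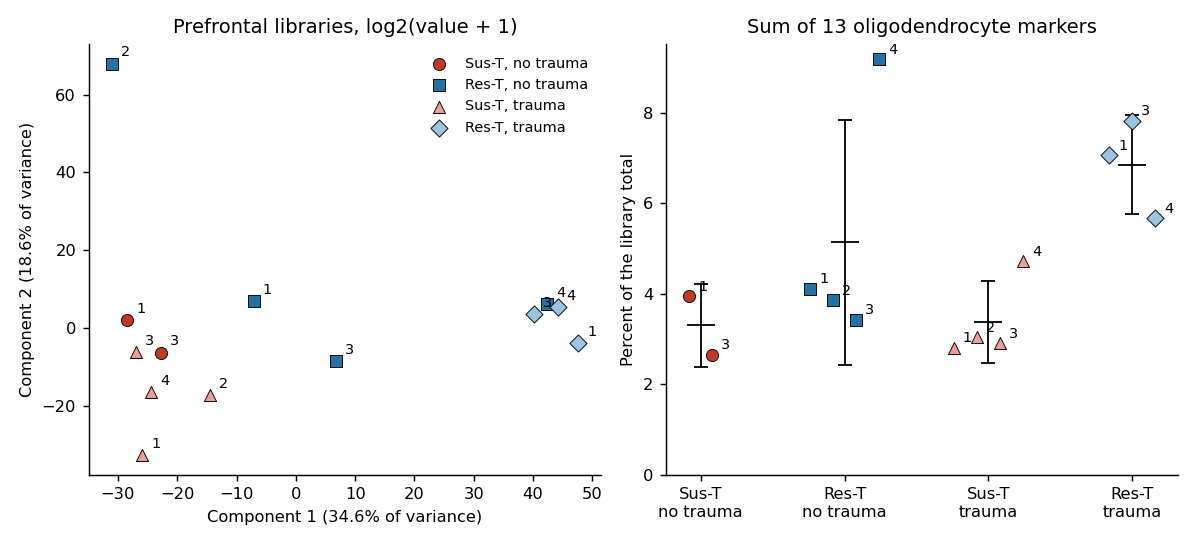
Left, each of the 13 prefrontal libraries by its scores on the first 2 principal components of log2(value + 1), numbered by replicate. Right, the summed value of 13 oligodendrocyte markers as a percent of each library's total, with the mean and SD of each group. Res-T replicate 4 without trauma lies with the Res-T libraries with trauma on the first component and has the highest marker sum, 9.18%.

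No gene passed an adjusted p of 0.05 in Sus-T against Res-T without trauma (limma, Benjamini-Hochberg adjustment over 6080 genes). The smallest adjusted p was 0.0699, and without Res-T replicate 4 it was 0.165, again with 0 genes past the threshold. At an unadjusted p below 0.05 there were 630 genes (10.4%), of which 304 (5%) were higher and 326 (5.36%) lower in Sus-T. Both Sus-T values exceeded the highest of the 4 Res-T values for 496 genes (8.16%), and both were under the lowest for 410 genes (6.74%). Without Res-T replicate 4 the unadjusted p picked 514 genes (8.45%), 239 higher (3.93%) and 275 lower (4.52%), and the values did not overlap for 10.2% of genes higher and 9.03% lower. Leaving out other libraries changed the count: 3 genes passed without Sus-T replicate 1, 53 without Sus-T replicate 3, 11 without Res-T replicate 2 and 2 without Res-T replicate 3, and all 53 were lower. Where 1 Sus-T library remains, it is assumed to vary like the other groups. Differences were small for most genes, with a median of 0.06 and a median size of 0.36 on the log2 scale, although fitted differences reached at least 2-fold for 355 genes with higher and 253 genes with lower values in Sus-T. On simulated data of the same size, this fit recovered 11.5% of genes changed 2-fold and 66% of genes changed 4-fold. Genes below are therefore given by their values and not as changes.

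The 20 genes with the smallest p were all lower in Sus-T. Of these, 10 were predicted pseudogenes of a single sequence family, described further on. Among genes with a given name, the smallest p belonged to Rrs1, a regulator of ribosome assembly in the nucleolus. Its values were 37.5 and 117 in Sus-T, against 409, 260, 210 and 248 in Res-T. The groups did not overlap, and the difference was -2.02 ± 0.40 (SE, limma adjusted p = 0.0802), or -2.07 without Res-T replicate 4. Lcorl, a nuclear protein related to a nuclear receptor corepressor, had 244 and 307 in Sus-T, against 950, 454, 611 and 810 in Res-T. Its difference was -1.31 ± 0.27 (SE, limma adjusted p = 0.0802). Rasgrp3, an exchange factor that activates Ras and Rap GTPases, had 104 and 187 in Sus-T and 418, 287, 358 and 433 in Res-T, a difference of -1.40 ± 0.31 (SE, limma adjusted p = 0.12). In each of these genes the higher Sus-T library stayed below the lowest Res-T library.

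Other leading lower genes were Akap9, Ipo13 and Sltm. Akap9, which anchors protein kinase A at the centrosome and Golgi, had 652 and 719 in Sus-T, against 1407, 1077, 1162 and 1727 in Res-T, a difference of -0.95 ± 0.22 (SE, limma adjusted p = 0.169). Ipo13, a nuclear transport receptor, had 380 and 352 in Sus-T, against 788, 614, 620 and 702 in Res-T, a difference of -0.89. Sltm, an RNA-binding modulator of transcription, had 387 and 262 in Sus-T, against 565, 741, 548 and 705 in Res-T, a difference of -0.99. Akap9 and Ipo13 were tight within Sus-T and set apart from every Res-T library. Srgap1, a GTPase-activating protein of the Slit and Robo guidance pathway, joined the leading genes when Res-T replicate 4 was left out, with a difference of -1.19, against -1.08 with it. It had 187 and 336 in Sus-T, against 779, 507, 480 and 423 in Res-T. The remaining leading genes of this direction, Olfr46 and Vmn1r55, belong to receptor families and are taken up with the pseudogenes.

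Among genes higher in Sus-T, Copz2, a subunit of the coat of vesicles that move between Golgi and endoplasmic reticulum, came first. It had 33.3 and 28.5 in Sus-T, against 1.82, 2.29, 4.15 and 5.97 in Res-T, a difference of 2.90 ± 0.71 (SE, limma adjusted p = 0.194) and a 7.45-fold ratio on the fitted scale. Osbpl6, an oxysterol-binding protein, had 78.6 and 71.1 in Sus-T, against 29.1, 8.27, 16.9 and 12.2 in Res-T, a difference of 2.24 ± 0.55 (SE, limma adjusted p = 0.194). Both sat at low levels, where log2(value + 1) understates the ratio. Pitpnm1, a phosphatidylinositol transfer protein, had 295 and 317 in Sus-T, against 125, 76.4, 183 and 44.6 in Res-T, a difference of 1.69. Pdgfra, the receptor for platelet-derived growth factor that marks oligodendrocyte precursors, had 809 and 689 in Sus-T, against 387, 326, 187 and 423 in Res-T. Its difference was 1.24 ± 0.32 (SE, limma adjusted p = 0.208), and 1.38 without Res-T replicate 4. The lower Sus-T library exceeded the highest Res-T library for all 4 genes.

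An adaptor of protein degradation and a centromere protein were also among the 8 leading higher genes. Fbxo31, a substrate adaptor of a ubiquitin ligase, had 396 and 251 in Sus-T, against 164, 140, 152 and 76.5 in Res-T, a difference of 1.30. Cenpb, which binds centromeric satellite DNA, had 277 and 418 in Sus-T, against 185, 160, 144 and 89.5 in Res-T, a difference of 1.28. For Fbxo31, Cenpb and Pitpnm1 the lowest Res-T library was replicate 4, and without it their differences were 1.05, 1.06 and 1.33. In the matrix and cytoskeleton genes the Sus-T libraries differed from each other. Thbs2, a secreted thrombospondin, had 19.1 and 81.7 in Sus-T, against 1.91, 2.3, 5.84 and 6.7 in Res-T, a difference of 3.10. Tpm4, a tropomyosin that lines actin filaments, had 126 and 316 in Sus-T, against 62.9, 75.2, 57.9 and 82.3 in Res-T, a difference of 1.52. In both genes the higher value came from Sus-T replicate 3. The genes Fn1 (fibronectin) and Nid1 (nidogen), singled out after their values were seen, showed the same library far above the rest. Fn1 had 64.2 and 2587 in Sus-T, against 86.8 to 279 in Res-T. Nid1 had 3.24 and 280 in Sus-T, against 1.84 to 5.5 in Res-T.

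Eno1b and Meis1 were among the 6 leading higher genes only in the fit without Res-T replicate 4. Eno1b, an enolase gene with a near-identical copy in Eno1 so that the split of reads between them is uncertain, had 68.4 and 77 in Sus-T, against 15.6, 12.9, 2.59 and 22 in Res-T. Meis1, a homeobox transcription factor, had 234 and 83.8 in Sus-T, against 9.06, 34.1, 53.3 and 262 in Res-T. For Meis1 the value of replicate 4 was the highest of all 6, so its difference was 1.57 with that library and 2.40 without it.

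**Figure D2:**
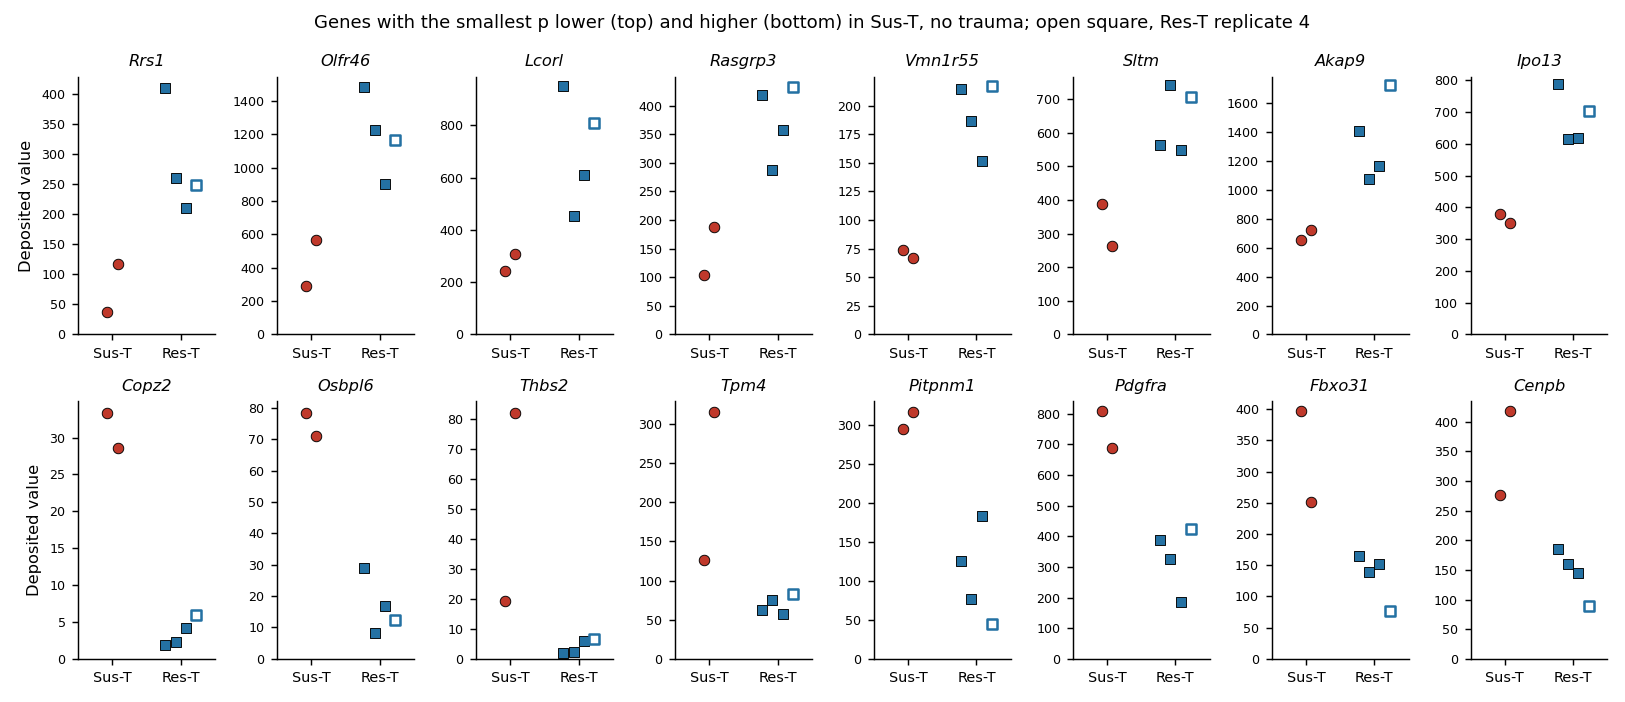
Deposited values of the 8 named genes with the smallest p lower in Sus-T (top row) and the 8 higher in Sus-T (bottom row), 1 point per library, Sus-T left and Res-T right; the open square is Res-T replicate 4. The 2 Sus-T points lie outside the range of the 4 Res-T points in each of the 16 panels.

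Pseudogenes with closely related sequences were frequent among the genes with the smallest p. Processed pseudogenes are copies of transcripts that were inserted back into the genome. The prefrontal table held 94 pseudogenes of all kinds, and 46 of them, 45 annotated as processed, formed a single sequence family. Members were joined where their annotated transcripts matched another at 90% identity or more over at least 500 bases. They lay on 10 chromosomes, ran from 820 to 5020 bases, and had a median best identity of 97.4% to another member. The family was put together after the values were seen. Reads from copies this similar cannot be assigned to 1 copy with certainty, so the members are not independent measurements. To show how alike they are, a stretch of 100 bases from the 4 members with the smallest p among 20 members of nearly equal length follows, on GRCm38.p6 and 5′ to 3′ on the transcribed strand, with capitals at the 6 bases that are not identical in all 4.
Gm48082, chr12:10993429-10993528, plus strand: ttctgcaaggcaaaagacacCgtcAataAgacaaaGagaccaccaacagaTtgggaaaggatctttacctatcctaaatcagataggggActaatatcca
Gm43540, chr5:11463499-11463598, plus strand: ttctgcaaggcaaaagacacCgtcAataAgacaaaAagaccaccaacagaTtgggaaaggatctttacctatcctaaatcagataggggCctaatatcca
Gm49273, chr15:103660914-103661013, plus strand: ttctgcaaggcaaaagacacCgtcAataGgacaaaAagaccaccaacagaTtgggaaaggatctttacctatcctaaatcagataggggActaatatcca
Gm48493, chr13:16386585-16386684, minus strand: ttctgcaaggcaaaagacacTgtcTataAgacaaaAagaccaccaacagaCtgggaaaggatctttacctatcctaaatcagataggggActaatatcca
The stretch begins at base 3076 of each of these 4, which differ from the first by 2, 2 and 4 bases. It was held at 85% identity or more by 31 of the 46 members. All 4 are annotated as pseudogenes without a product. The family was not compared with annotated repeats, so whether it comes from a gene or from a repeat was not tested.

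Values of 45 of the 46 family members were lower in Sus-T, with a median difference of -1.21 and a range of -3.73 to 0.04. An unadjusted p below 0.05 was reached by 32 of them in the lower direction, against 5.36% of all genes, and by 0 in the higher direction. Both Sus-T values were under every Res-T value for 33 members, against 6.74% of all genes. Gm48082, on chromosome 12, had 337 and 331 in Sus-T, against 721, 688, 662 and 951 in Res-T, a difference of -1.16 ± 0.22 (SE, limma adjusted p = 0.0802). Gm43540, on chromosome 5, had 82.9 and 57.2 in Sus-T, against 224, 237, 240 and 192 in Res-T, a difference of -1.68 ± 0.34 (SE, limma adjusted p = 0.0802). For both members each Sus-T value lay below the lowest Res-T value, at different levels. Gm49273, on chromosome 15, had 80.1 and 187 in Sus-T, against 794, 376, 291 and 533 in Res-T. Gm48493, on chromosome 13, had 1157 and 402 in Sus-T, against 2253, 1291, 1738 and 2903 in Res-T, the widest spread of the 4 within Sus-T. The gene with the smallest p of the whole table was also a member, Gm47654 on chromosome 14, with 124 and 220 in Sus-T and 808, 581, 412 and 674 in Res-T, a difference of -1.85 ± 0.31 (SE, limma adjusted p = 0.0699). The single member that was not lower, Gm48054, had 40.3 and 64.1 in Sus-T, against 37.3, 14, 78.7 and 139 in Res-T.

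Summed over its members, the family took 0.34% and 0.469% of the library total in Sus-T, against 1.13%, 0.717%, 0.739% and 0.956% in Res-T. The means were 0.405% ± 0.0915 (SD, n = 2) in Sus-T and 0.886% ± 0.196 (SD, n = 4) in Res-T, and the ranges did not overlap. An exact permutation test over libraries gave a two-sided p of 0.133, the smallest that 2 against 4 libraries allow. Without Res-T replicate 4 the Res-T mean was 0.863% ± 0.233 (SD, n = 3; exact permutation test, p = 0.2, the smallest possible for 2 against 3). The median difference of the members was then -1.15, and 30 of the 46 were lower at an unadjusted p below 0.05, against 4.52% of all genes. With oligodendrocyte marker level as a covariate the median was -1.24. The direction also held in the libraries with trauma, which are other samples. There the family took 0.334% to 0.671% in 4 Sus-T libraries and 0.78% to 1% in 3 Res-T libraries, and 21 of the 46 members were lower at an adjusted p below 0.05, against 8.93% of all genes, with none higher and a median of -0.90. The difference between the conditions was past an unadjusted p of 0.05 for 1 member and past an adjusted p of 0.05 for 0 (limma). In the amygdala libraries without trauma, 25 of the members had values, 14 lower and 11 higher in Sus-T, with a median difference of -0.09. Whether the regions differ was not tested.

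**Figure D3:**
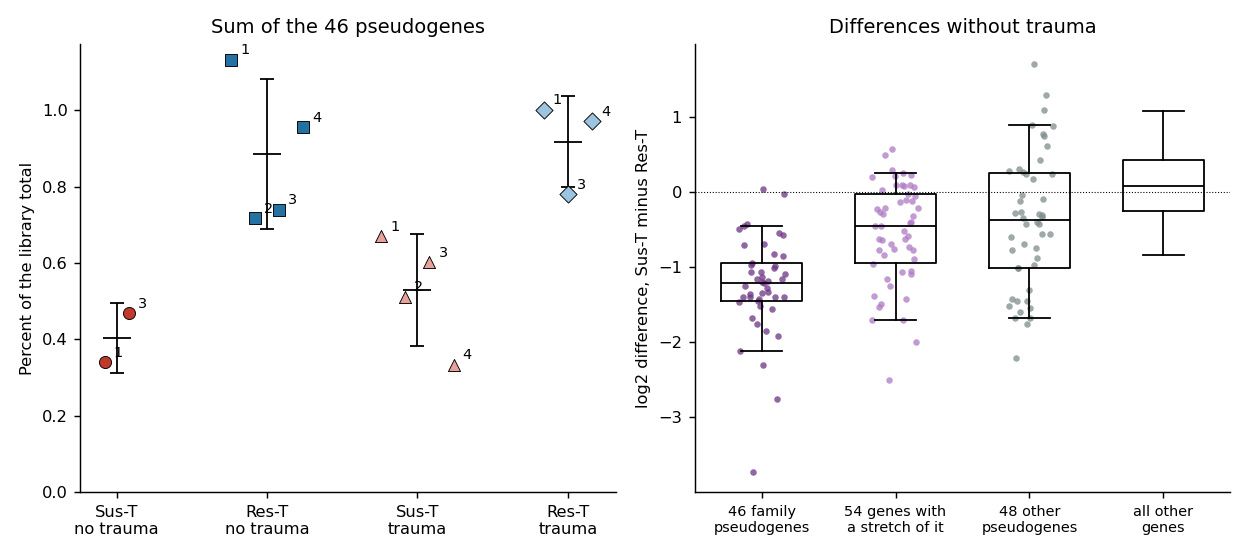
Left, the summed value of the 46 family pseudogenes as a percent of each prefrontal library's total, numbered by replicate, with the mean and SD of each group. Right, log2 differences (Sus-T minus Res-T, without trauma) of the family, of genes whose transcripts hold a stretch of it, of other pseudogenes and of all other genes; boxes span the quartiles with the median, whiskers the 5th to 95th percentile. Both Sus-T libraries, at 0.34% and 0.469%, lie below all 4 Res-T libraries.

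Other genes whose annotated transcripts hold a stretch of the family's sequence leaned the same way. There were 54 of them, at 85% identity or more over at least 300 bases. Their median difference was -0.45. Of these, 16 were lower at an unadjusted p below 0.05, against 5.36% of all genes, and 0 were higher. Olfr46, an olfactory receptor gene of chromosome 7 with a matching stretch of 2540 bases, had 292 and 564 in Sus-T, against 1484, 1227, 905 and 1165 in Res-T, a difference of -1.53 ± 0.31 (SE, limma adjusted p = 0.0802). Vmn1r55, a vomeronasal receptor gene of the same chromosome with a match of 2838 bases, had 73.6 and 66.8 in Sus-T, against 215, 186, 152 and 217 in Res-T, a difference of -1.43 ± 0.32 (SE, limma adjusted p = 0.12). Such receptors detect odours and pheromones in the nose. Reads of these stretches can come from any copy, so the values of these genes are uncertain. Olfactory and vomeronasal receptor genes numbered 36 in the table, with a median difference of -0.61 and 13 lower at an unadjusted p below 0.05. The 15 of them that hold no such stretch had a median of -0.46 (-0.12 without Res-T replicate 4). The remaining 48 pseudogenes, outside the family, had a median of -0.37, with 6 lower at an unadjusted p below 0.05.

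Lists of genes for neuronal function were weighed by how many measured members reached an unadjusted p below 0.05 (5% of all genes were higher, 5.36% lower) and by their median, beside 0.06 for all genes. Counts of members with higher or lower values stand beside 3347 higher and 2733 lower of all 6080 genes. No member of any list passed the adjusted threshold. Calcium and cyclic AMP signalling had 15 of 18 measured members with higher values in Sus-T, 4 of them at an unadjusted p below 0.05, and a median of 0.31. Without Res-T replicate 4 these were 2 of 18 and 0.18. Prkaca, the catalytic subunit of protein kinase A, had 387 and 284 in Sus-T, against 204, 196, 217 and 192 in Res-T. Adcy5, an adenylyl cyclase, had 1020 and 898 in Sus-T, against 614, 809, 677 and 424 in Res-T. Neurotrophin and CREB signalling had 5 of 19 members higher at that p, with a median of 0.25, but 1 of 19 without Res-T replicate 4. Its leading member Crtc1, a coactivator of CREB, had 443 and 511 in Sus-T, against 297, 232, 329 and 169 in Res-T. Frs2, a docking protein of neurotrophin and growth factor receptors, had 515 and 467 in Sus-T, against 376, 334, 365 and 267 in Res-T.

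Synaptic genes that were measured had mostly higher values in Sus-T at the postsynaptic side. Of 14 postsynaptic density scaffold genes, 12 had higher values, 3 at an unadjusted p below 0.05, with a median of 0.22 (0.07 without Res-T replicate 4). Homer1, a scaffold that links metabotropic glutamate receptors to calcium stores and also an activity-induced gene, had 721 and 556 in Sus-T, against 297, 372, 504 and 256.2 in Res-T. Its difference was 0.87 ± 0.27 (SE, limma adjusted p = 0.325). Iqsec2, an exchange factor for Arf GTPases at glutamatergic synapses, had 275 and 303 in Sus-T, against 131, 47, 253 and 65.1 in Res-T. Neither gene overlapped between the groups. The 6 measured ionotropic glutamate receptor genes had a median of 0.80, with 1 at an unadjusted p below 0.05, Grin3a, an NMDA receptor subunit gene. It had 133 and 142 in Sus-T, against 80.1, 74.3, 46.9 and 18.7 in Res-T, a difference of 1.5 ± 0.55 (SE, limma adjusted p = 0.401). The 15 synaptic vesicle and release genes had a median of -0.06, 7 with higher and 8 with lower values. Nsf, the ATPase that takes apart fusion complexes, had 616 and 548 in Sus-T, against 351, 479, 288 and 128 in Res-T. Res-T replicate 4 was the lowest of the 4 Res-T libraries for Prkaca, Adcy5, Crtc1, Frs2, Homer1, Grin3a and Nsf. Axon guidance and adhesion genes had 4 of 31 higher and 2 of 31 lower at an unadjusted p below 0.05, led by Cdh13, a cadherin without a transmembrane domain, with 83.8 and 130 in Sus-T, against 59.6, 26.8, 31.4 and 10.7 in Res-T, where the lowest value was again replicate 4. Without that library 3 of 31 were higher and 1 lower at that p.

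Among genes of protein synthesis, translation factors had 6 of 29 members higher and 1 lower at an unadjusted p below 0.05, with a median of 0.18. Eif5a, a factor that helps ribosomes through stalling sequences, had 412 and 408 in Sus-T, against 207, 253, 194 and 169 in Res-T, a 2.01-fold ratio on the fitted scale (limma adjusted p = 0.246). It shares sequence with a pseudogene copy. Eif2s3x, a subunit of the initiation factor that brings the first transfer RNA, had 569 and 495 in Sus-T, against 298, 368, 245 and 264 in Res-T. Eef2, the factor that moves the ribosome along, had 4434 and 5595 in Sus-T, against 3373, 2938, 3667 and 2235 in Res-T. The groups did not overlap for any of these 3. Of 16 cytosolic ribosomal protein genes measured, 14 had higher values in Sus-T and 0 reached an unadjusted p below 0.05 in either direction (limma), with a median of 0.23, or 0.23 without Res-T replicate 4. The 40 nuclear-encoded genes of oxidative phosphorylation had a median of 0.26, with 3 higher and 0 lower at an unadjusted p below 0.05, and 1 higher without Res-T replicate 4, when 3.93% of all genes were higher. Atp5b, a catalytic subunit of ATP synthase, had 1482 and 1709 in Sus-T, against 1098, 1323, 851 and 837 in Res-T.

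In lists of nuclear regulators more members had lower than higher values in Sus-T. Of 47 chromatin regulators, 30 had lower values in Sus-T, beside 2733 of all 6080 genes. At an unadjusted p below 0.05, 4 were lower and 1 higher, and the median was -0.11. Kmt2e, a reader of histone methylation, had 636 and 748 in Sus-T, against 1271, 1193, 1076 and 1359 in Res-T, a difference of -0.82 ± 0.20 (SE, limma adjusted p = 0.187). Tet2, an enzyme that oxidises methylated cytosine, had 494 and 503 in Sus-T, against 694, 582, 812 and 831 in Res-T. Splicing and RNA-binding protein genes had 24 of 39 lower values, 5 lower and 1 higher at that p, and a median of -0.13 (-0.04 without Res-T replicate 4). Mbnl2, a splicing regulator, had 2132 and 1984 in Sus-T, against 3107, 2750, 2592 and 3397 in Res-T. Rbfox2, another splicing regulator, went the opposite way, with 381 and 575 in Sus-T, against 291, 304, 220 and 185 in Res-T. The shares past the unadjusted p in these lists, 4 of 47 and 5 of 39 lower, stand beside 5.36% of all genes, and for the chromatin list the share is near that background. Other lists had few members past the unadjusted p. Of 28 proteasome subunits 0 were higher and 2 lower, and of 26 heat shock proteins and chaperones 0 in either direction (limma). Without Res-T replicate 4, 1 proteasome gene was higher and 1 lower, and 2 heat shock genes were higher and 0 lower. All 9 measured glycolysis genes had higher values in Sus-T, none at that p, with a median of 0.36. Actin and spine genes had a median of -0.01 over 33 members (-0.06 without Res-T replicate 4), and lysosome and autophagy genes 0.10 over 33 (0.02 without it). Differences also depended on level: the median was 0.25 in the fifth of genes with the lowest mean values and -0.03 in the fifth with the highest.

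**Figure D4:**
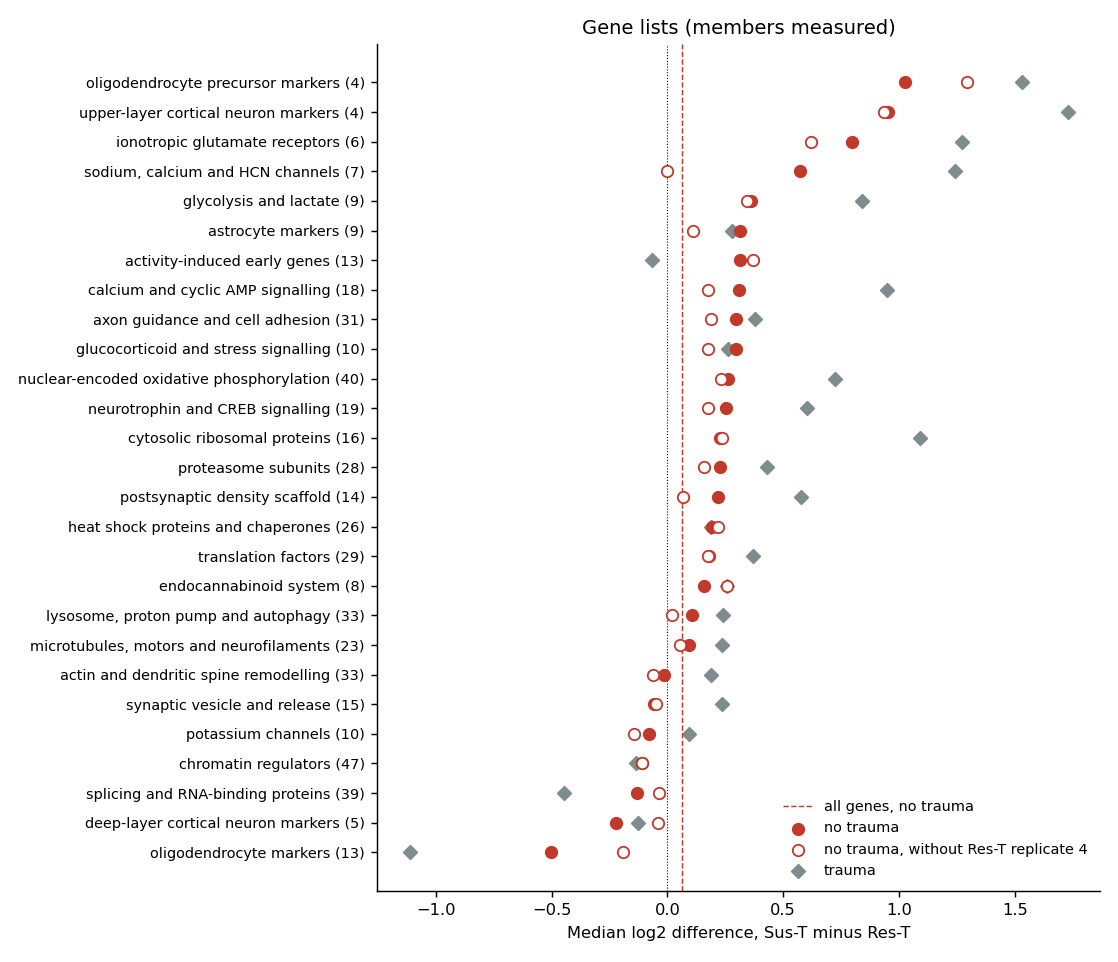
Median log2 difference (Sus-T minus Res-T) of each gene list with at least 4 measured members, without trauma (filled circles), without trauma and without Res-T replicate 4 (open circles) and with trauma (diamonds); the dashed line is the median of all genes without trauma. Oligodendrocyte markers lie lowest, at -0.50, or at -0.19 without Res-T replicate 4, and precursor markers highest, at 1.02.

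Marker genes of glia moved with Res-T replicate 4. All 13 measured oligodendrocyte markers had lower values in Sus-T, with a median of -0.50, but -0.19 without that library. Their sum was 3.95% and 2.65% of the library total in Sus-T, against 4.11%, 3.85%, 3.42% and 9.18% in Res-T, and an exact permutation test gave a two-sided p of 0.4. Without replicate 4 the Res-T mean was 3.8% ± 0.347 (SD, n = 3), beside 3.3% ± 0.915 (SD, n = 2) in Sus-T. Mbp, which encodes myelin basic protein, had 15707 and 11877 in Sus-T, against 12889, 14038, 12843 and 17015 in Res-T. Its difference was -0.05, and 0.04 without replicate 4. Of the 13 markers, 2 (Fa2h and Enpp2) were lower at an unadjusted p below 0.05, against 5.36% of all genes. Without replicate 4 there was 1, against 4.52%. Fa2h, an enzyme of myelin lipid synthesis, had 140 and 624 in Sus-T, against 1122, 654, 617 and 2384 in Res-T, so the groups overlapped. Enpp2 had 3639 and 2640 in Sus-T, against 4889, 3834, 3848 and 9439 in Res-T, without overlap. Its difference was -0.72, and -0.43 without replicate 4. Whether oligodendrocyte RNA had a part in the other differences was not tested. The fit with oligodendrocyte marker level as a covariate called 0 genes (limma), as the main fit did, so the calls cannot show this. It had 513 genes at an unadjusted p below 0.05, against 630 in the main fit.

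Precursor markers ran opposite to those of mature oligodendrocytes. Of 4 measured, 3 had higher values in Sus-T, with a median of 1.02 and a sum of 0.111% and 0.0859% in Sus-T, against 0.0808%, 0.0803%, 0.0551% and 0.123% in Res-T (exact permutation test, two-sided p = 0.667; without replicate 4, p = 0.2, the smallest possible for 2 against 3). Replicate 4 had the highest sum and the only Res-T sum above the Sus-T range. C1ql1, a secreted protein of precursors, had 26.9 and 24.8 in Sus-T, against 11.8, 4.76, 3.71 and 24.9 in Res-T. Astrocyte markers summed to 1.07% and 1.27% in Sus-T, against 0.843%, 1.22%, 0.934% and 0.679% in Res-T (exact permutation test, two-sided p = 0.267). Layer markers of cortical neurons were sparse. The 4 measured upper-layer markers summed to 0.0622% and 0.0642% in Sus-T, against 0.0469%, 0.0559%, 0.0588% and 0.0239% in Res-T, with no overlap (exact permutation test, two-sided p = 0.133, the smallest possible). Leaving out Res-T replicate 4 took the difference of these sums from 0.0168 to 0.00935 percentage points. Of the 4 genes, only Cdh13 had groups that did not overlap. Cux1 and Rorb, which had the highest values of the 4, overlapped. Their log2 differences were 0.24 and 0.71, and -0.0035 and 0.40 without replicate 4. The 5 deep-layer markers had overlapping sums and a median difference of -0.22, or -0.04 without Res-T replicate 4.

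Activity and stress genes showed no common direction beyond their spread. Of 13 measured early genes, 9 had higher values in Sus-T, beside 3347 of all 6080 genes, and 1, Homer1, reached an unadjusted p below 0.05. Fos had 5857 and 1204 in Sus-T, against 1280, 4615, 1923 and 4743 in Res-T, a difference of -0.03 ± 0.52 (SE, limma adjusted p = 0.994), and its sign turned under another scaling. Nr4a1, an early gene and nuclear receptor, had 1036 and 353 in Sus-T, against 250, 665, 287 and 399 in Res-T. In both genes Sus-T replicate 1 was far above replicate 3. Of 10 measured glucocorticoid and stress genes, 7 had higher values and 1 reached an unadjusted p below 0.05, Cdkn1a, a cell cycle inhibitor induced by glucocorticoids, with 83.3 and 189 in Sus-T, against 44.2, 84, 64.1 and 5.885 in Res-T. The groups overlapped, and the lowest value was that of Res-T replicate 4. Without it the difference of Cdkn1a was 1.01 in place of 1.81, and 0 of the 10 genes reached an unadjusted p below 0.05 (limma). The glucocorticoid receptor gene Nr3c1 and its cochaperone gene Fkbp5 were not among the genes analysed here.

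Genes that leaned one way without trauma were compared with the same contrast in mice with trauma, which shares none of the 6 libraries but shares the estimate of spread. In that contrast 1397 genes passed an adjusted p of 0.05 (23%), 854 higher (14%) and 543 lower (8.93%), although 0 did with the oligodendrocyte covariate (789 at an unadjusted p below 0.05) and 2203 did with library weights. Over all genes, 73.8% had the same sign in both contrasts, and 65.5% without Res-T replicate 4. Of the 8 leading lower genes without trauma, all 8 had the same sign with trauma. Among mice with trauma, 7 of them were lower in Sus-T than in Res-T at an adjusted p below 0.05 (limma). The exception was Ipo13, at -0.24 (limma adjusted p = 0.357). Rasgrp3 differed by -1.41 ± 0.27 with trauma (SE, limma adjusted p = 0.00318) and Vmn1r55 by -1.76 ± 0.28 (SE, limma adjusted p = 0.00165). Of the 8 leading higher genes, all had the same sign, and 6 were higher in Sus-T than in Res-T among mice with trauma at that threshold. Pdgfra was among these 6, at 1.72 ± 0.28 (SE, limma adjusted p = 0.00168), while Copz2 and Thbs2 did not pass. Over all genes at an unadjusted p below 0.05 without trauma, 186 of 304 higher (61.2%) and 164 of 326 lower (50.3%) passed in the same direction with trauma, and 0 in the opposite direction. Without Res-T replicate 4 these were 100 of 239 (41.8%) and 108 of 275 (39.3%), with 6 of the higher genes passing in the opposite direction. Across genes the 2 sets of differences correlated at r = 0.578, and at 0.372 without Res-T replicate 4; genes are not independent replicates. In the amygdala libraries without trauma, r across the 5274 shared genes was 0.46, and 0.31 without that library.

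**Figure D5:**
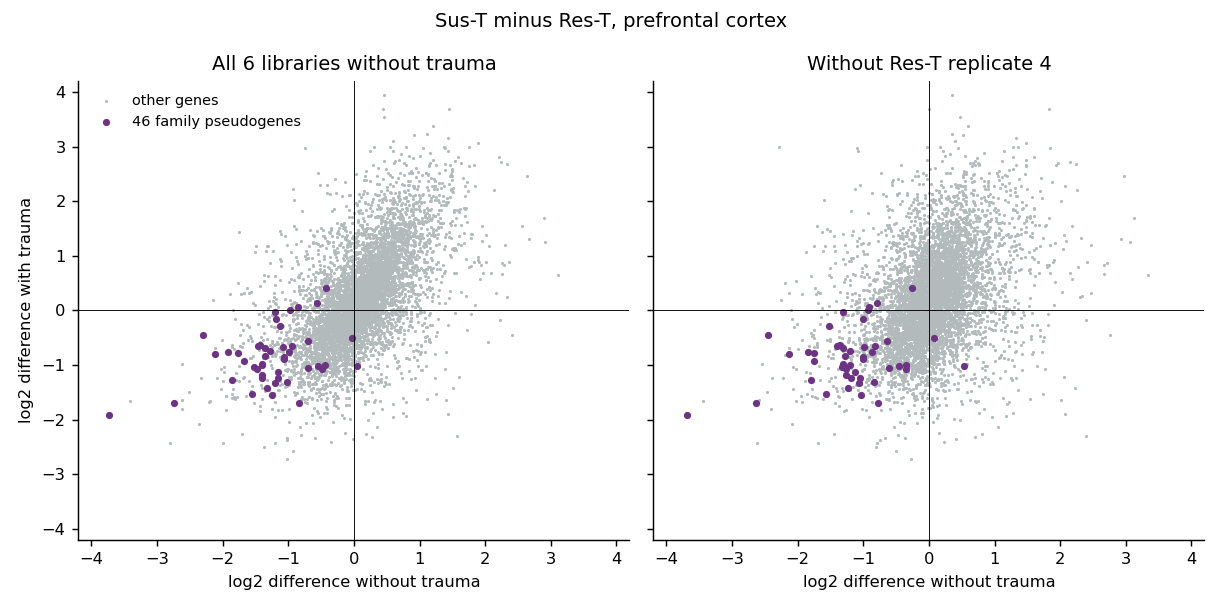
Log2 difference (Sus-T minus Res-T) of each of the 6080 genes without trauma (x axis) and with trauma (y axis), with all 6 libraries without trauma (left) and without Res-T replicate 4 (right); purple points are the 46 family pseudogenes. The correlation across genes is 0.578 on the left and 0.372 on the right, and most family members lie in the lower left part in both.

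No gene differed between the conditions at an adjusted p of 0.05 in the test of the difference of differences (limma, smallest adjusted p = 0.774), and 371 genes (6.1%) had an unadjusted p below 0.05, 2.6% with a positive and 3.5% with a negative sign. Without Res-T replicate 4, 12 genes (0.197%) passed, 3 positive (0.0493%) and 9 negative (0.148%), with a smallest adjusted p of 0.00933, while 14.6% had an unadjusted p below 0.05 (5.46% positive, 9.14% negative), and Mef2c, Meis1 and Glcci1 were among them. Mef2c, a transcription factor of neuronal differentiation and synapse number, had 1101 and 784 in Sus-T without trauma, against 779, 399, 745 and 111 in Res-T, where 111 is replicate 4. Its difference was 1.21 without trauma and 3.38 with trauma, where Sus-T had 1030 to 1608 and Res-T 88.8 to 152. Leaving out replicate 4 took the difference without trauma to 0.60 and the difference of differences to -2.79 (limma adjusted p = 0.00941). Meis1 had the opposite pattern, with a difference of -2.31 with trauma, against 2.40 without trauma and without replicate 4. Glcci1, a gene induced by glucocorticoids, had 391.7 and 554 in Sus-T and 619, 689, 531 and 323 in Res-T without trauma. Its difference was -0.16 without trauma and 1.52 with trauma. In all 3 genes the value of replicate 4 was nearer to the Res-T libraries with trauma than to its own group. They passed only without replicate 4, so this closeness follows in part from how they were chosen. The genes with the smallest p of this test with all libraries were Hspe1, Glcci1, Snrpd1 and Snhg11. Hspe1, the mitochondrial cochaperonin, had 127 and 123 in Sus-T, against 119, 99.8, 70.6 and 54.3 in Res-T. Snrpd1, a core protein of the spliceosome, had 49.9 and 35.7 in Sus-T, against 121, 176, 38 and 54.5 in Res-T. Snhg11, a long noncoding transcript of neurons, had 470 and 350 in Sus-T, against 361, 342, 149 and 175 in Res-T. These 3 had higher values in Sus-T with trauma, with differences of 3.11, 2.23 and 2.69.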

How the data were processed

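The values analysed here are deposited tables of the medial prefrontal cortex, a signal in arbitrary units that the authors normalized by a method not given in the sources used here. Reads were processed with bcl2fastq 2.20 and Salmon 1.2 on GRCm38.p6, per the submitters' processing notes. Values have no whole-read steps (1638 of 1638 values below 10 were distinct), so read depth and counting error are unknown and no count test was possible. After centring by gene, the 13 prefrontal libraries spanned 10 of 12 dimensions, so some variation had been removed before deposit and p-values may be too small.

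Genes with a mean of at least 1 (all 6080) were analysed as log2(value + 1) in a 4-group model with limma 3.58.1 (R 4.3.3; trend and robust moderation, 9 residual degrees of freedom, median prior 8.4), adjusted by Benjamini and Hochberg over all genes. Sus-T was compared with Res-T in mice that met no trauma and in mice that did, and the contrasts were subtracted; the step was tested on simulated data. Summed markers were compared by exact permutation over libraries. Symbols and coordinates came from GENCODE M21, with 6080 of 6080 genes matched by identifier. The sequence family was found with blastn 2.17.0. Named genes are the 8 with the smallest p in each direction, the 6 without Res-T replicate 4, the leading members of lists, a preset group (Fos, Nr4a1, Mef2c and Mbp among those measured) and the 4 leading genes of the difference of differences; predicted genes are named only within the sequence family. Members and lists were chosen with earlier results of these data known. Alternatives covered scaling, pseudocount, filter, moderation, weights, covariates and leaving out libraries.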

Additional observations from a re-analysis of the deposited data

Results flagged for a closer look

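Of 138 results tested for a library of Res-T without trauma that lay far from the other 3, 7 were picked out; chance picks about 1 in 20. Res-T replicate 4 was the far library in 4 of them. Some of the genes tested were named because of fits without that library, so this count follows in part from the choice of genes. In replicate 4 the oligodendrocyte marker sum was 9.178%. Cdh10, a cadherin, had 517.2 in replicate 4, against 410 to 423 in the other 3 Res-T libraries. Pwwp2a, a chromatin protein, had 60.07 in replicate 4, against 276 to 284 in the other 3; Res-T libraries with trauma had 50.2 to 55.3. Nhsl2 had 34.32 in replicate 4, against 259 to 315 in the other 3; Res-T libraries with trauma had 32.6 to 68.6. In other replicates, Foxp2, a deep-layer transcription factor, had 10.41 in replicate 1, Abhd12, a lipase of the endocannabinoid system, had 536.7 in replicate 3, and Erbb4, a neuregulin receptor, had 622.1 in replicate 3. The causes were not tested.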

How the results depend on the processing

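Sus-T against Res-T without trauma called 0 genes, and 5 with library weights; leaving out 1 library at a time gave 0 to 53. With trauma the count of 1397 became 2203 with library weights and 0 with the oligodendrocyte covariate, and the difference of differences called 0 to 12 with 1 library left out. Of 897 values of 53 of the named genes under alternatives, 22 turned sign. With both Sus-T libraries kept, 2 values passed the threshold with library weights and 1 without Res-T replicate 2. The main fit called 0 genes, and many of these genes were chosen by a small p. A kept sign was therefore favoured by the choice of genes. Fos, at -0.03, became 0.0302 with quantile scaling, 0.0131 with equal totals, 0.41 with the replicate block, 0.53 with library weights, 0.42 with the covariate, -1.17 to 1.11 with 1 library left out, 0.23 without Res-T replicate 2 and 0.24 without Res-T replicate 4. Mbp, at -0.05, became 0.0284 with library weights, 0.17 with the covariate, -0.25 to 0.16 with 1 library left out and 0.0443 without Res-T replicate 4. Pwwp2a, at 0.07, became -0.11 with the block, -0.24 with library weights, -0.62 with the covariate, -0.48 to 0.26 with 1 library left out, -0.04 without Sus-T replicate 3 and -0.48 without Res-T replicate 4. With 1 library left out, Nr4a1 ran from -0.0728 to 1.48 and Glcci1 from -0.41 to 0.0901, both turning sign without Sus-T replicate 1. Fits of the libraries without trauma alone gave the same differences and 0 calls, with 324 genes at an unadjusted p below 0.05. The causes were not tested.

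Deviations of same-numbered libraries correlated at -0.328 and -0.0891. With 2 Sus-T libraries, the deviations of 1 mirror those of the other, so these values cannot show whether the numbers pair libraries. The replicate block gave 0 calls and 460 genes at an unadjusted p below 0.05 (limma), against 630. A test on recovered reads was not run, because the values show no whole-read steps. The alternatives for the comparison with trauma, for the pseudogene family and for the marker sums (other than leaving out Res-T replicate 4) were chosen after seeing the data. Depth is unknown, so low values such as those of Copz2 carry unknown counting error.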
